A study of Mus musculus with 12 samples.

Results

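S100 proteins are small calcium-binding proteins of the EF-hand type, and most of them work as dimers. The genes S100a3, S100a4, S100a6, S100a8, S100a9, S100a10, S100a11, S100a14, S100a16 and S100b were followed here in mouse skin. They were listed by name. Of these 10 genes, 9 had a probe set annotated to them alone, and 13 such probe sets were found among 45101 on the array. The only set of S100a11, a partner of annexin A1, was also annotated to Gm12854 and S100a11-ps, and no value is given for it. The 9 measured genes were part of 18193 genes tested.

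Whole skin RNA was hybridised to Affymetrix arrays from 4 groups of 3 biological replicates each. AhR-deficient mice (Ahr-/-, AhR KO in the labels) were sampled on day 2 of treatment with imiquimod (IMQ, given as a cream that brings on psoriasis-like skin inflammation) or untreated on day 0. Heterozygous littermates (Ahr+/-, AhR HET) were sampled on day 2 of IMQ or untreated on day 0. The animals' age was not given in the sources used here. AhR, the aryl hydrocarbon receptor, is a transcription factor activated by ligands from the environment and from metabolism. The controls carried 1 disrupted Ahr allele, wild-type skin was not part of the arrays, and the deletion was in all cells of the body. Treated mice were shaved and received cream whereas untreated mice received none, so that imiquimod, its cream and its application cannot be told apart. Because whole skin was used, a change in the number of cells of a type and a change in RNA per cell cannot be told apart.

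The skin label was checked against 7 keratinocyte markers, whose mean log2 signal lay between 11.78 and 13.36 in the 12 arrays. The brighter of the Ahr probe sets had 9.07 to 9.87 in Ahr-/- IMQ skin and 11.29 to 11.44 in untreated Ahr-/- skin, against 9.79 to 10.27 in Ahr+/- IMQ skin and 10.11 to 11.30 in untreated Ahr+/- skin. This set did not separate the genotypes, and whether its probes lie outside the deleted part of the gene was not found in the sources, so it does not check the genotype labels. Arrays 1 and 2 of Ahr-/- IMQ skin stood apart in RNA quality. The Gapdh control sets at the 3' end exceeded those at the 5' end by 1.17 and 1.52 log2 units there, while the other 10 arrays had 0.14 to 0.53. Array 2 of untreated Ahr+/- skin stood apart in hair follicle and melanocyte genes. For S100 genes, values without these arrays are given beside each call they change, and for genes of the marker and pathway lists the lost calls are counted after the comparison of the genotypes.

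S100A8 and S100A9 form the heterodimer calprotectin, which is abundant in neutrophils and monocytes, binds zinc and manganese and is induced in keratinocytes of inflamed epidermis. Outside cells it is known as a ligand of the receptors TLR4 and RAGE. Other family members are tied to structural tissues: S100A3 to the hair cuticle, S100A10 to annexin A2 at membranes, and S100B to Schwann cells and other glia. In the RefSeq annotation of GRCm38.p6, 9 of the 10 genes lie on chromosome 3, next to the genes of epidermal differentiation, and S100b lies on chromosome 10. No annotated gene lies between S100a8 and S100a9.

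RefSeq promoter sequences were matched for 8 of the 10 genes, with 12 annotated starts among them. The 250 bases before each start were searched on both strands for 4 motifs, which do not overlap in the matches shown. These were GCGTG, the core of the AhR binding site, TGANTCA, the AP-1 site, TTNCGNAA, a C/EBP site, and TATAAA, the TATA box. The 4 stretches shown are those of S100a8 and S100a9, whose signals moved together, and those of S100a3 and S100a16 in which a match to the AhR core or to AP-1 was found. All are from GRCm38.p6 and end at the base before the start, with the motif in capitals. They stand at chr3:90668821-90669070 on the plus strand for S100a8, chr3:90695722-90695971 on the minus strand for S100a9, chr3:90584409-90584658 on the plus strand for S100a3 and chr3:90540896-90541145 on the plus strand for S100a16.
S100a8: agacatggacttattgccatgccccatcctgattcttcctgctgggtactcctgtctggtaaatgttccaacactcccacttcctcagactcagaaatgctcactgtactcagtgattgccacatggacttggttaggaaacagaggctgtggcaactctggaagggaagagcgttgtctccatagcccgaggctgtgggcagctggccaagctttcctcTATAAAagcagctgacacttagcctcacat
S100a9: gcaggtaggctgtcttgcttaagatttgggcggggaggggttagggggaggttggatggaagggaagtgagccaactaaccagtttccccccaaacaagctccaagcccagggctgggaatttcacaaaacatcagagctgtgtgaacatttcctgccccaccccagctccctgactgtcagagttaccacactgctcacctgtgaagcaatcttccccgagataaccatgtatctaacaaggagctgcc
S100a3: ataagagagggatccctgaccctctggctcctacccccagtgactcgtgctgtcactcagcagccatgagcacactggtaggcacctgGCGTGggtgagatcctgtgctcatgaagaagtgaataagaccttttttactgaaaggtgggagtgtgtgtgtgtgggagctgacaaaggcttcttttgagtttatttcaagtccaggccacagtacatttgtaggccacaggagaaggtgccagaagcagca
S100a16: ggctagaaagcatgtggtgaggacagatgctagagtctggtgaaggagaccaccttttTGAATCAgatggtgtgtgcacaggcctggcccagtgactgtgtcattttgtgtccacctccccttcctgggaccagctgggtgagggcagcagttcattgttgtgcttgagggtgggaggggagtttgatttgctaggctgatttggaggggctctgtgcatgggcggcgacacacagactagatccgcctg

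The S100a8 stretch held a TATA box at positions -30 to -25 counted back from the start, and the S100a9 stretch held none of the 4 motifs. The AhR core was found in 1 of the 12 promoters, at -162 to -158 of this S100a3 start, while 28.2% of 32851 RefSeq promoters hold it in the same window. S100a3 has other annotated starts further downstream, and none of their stretches held the AhR core. The AP-1 site was found in 2 of the 12 promoters, at -192 to -186 of this S100a16 start and in that of S100a11, against 6.75% of all promoters. The TATA box was found in 3 of the 12 (12.4% of all promoters) and the C/EBP site in none (2.04%). A match is a description of the letters in this window and no test of binding.

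On day 2 of IMQ, S100a8 and S100a9 were called higher in both genotypes, S100a16 was called higher in Ahr-/- skin and S100a3 was called lower in Ahr+/- skin. Calls needed an adjusted p below 0.05 by limma over all 18193 genes together with at least a 1.5-fold change. Among Ahr-/- mice, 3 of 9 S100 genes were called higher after IMQ and 0 lower, whereas 10.6% of all genes were called higher and 12.1% lower. Of the 9, 4 had an unadjusted p under 0.05. Among Ahr+/- mice, 2 of 9 were called higher and 1 lower, against 5.22% and 3.83% of all genes. The median log2 difference of the 9 genes after IMQ was 0.34 in Ahr-/- skin (0.07 over all genes) and 0.09 in Ahr+/- skin (-0.01 over all genes). The groups of 3 arrays did not overlap for 6 of the 9 genes in Ahr-/- skin, against 42.7% of all genes, and for 3 of 9 in Ahr+/- skin, against 29.8%.

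Between the genotypes no S100 gene was called. Of 9 genes, 0 were called between Ahr-/- and Ahr+/- IMQ skin, where 3.98% of all genes were, and 1 had an unadjusted p under 0.05. In untreated skin 0 of 9 were called, against 0.0055% of all genes, and 1 had an unadjusted p under 0.05. The rank product called 0 between the IMQ groups and 1, S100a3, in untreated skin. When the response to IMQ was compared between genotypes, 0 of 9 were called by limma, against 1.32% of all genes, and 1 had an unadjusted p under 0.05. The genotypes' arrays did not overlap for 2 of 9 genes after IMQ (33.0% of all genes) and for 1 of 9 without treatment (8.81%). Both IMQ comparisons share arrays with the comparisons between genotypes. The share of all genes called moved with the arrays and the model: between the IMQ groups 724 genes were called, but 27 with the Gapdh difference as a covariate, 43 with Ahr-/- IMQ array 3 alone, 217 without Ahr-/- IMQ array 2 and 1286 without Ahr-/- IMQ array 3.

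Genes of the marker and pathway lists are given below beside the S100 genes they bear on, and their calls between genotypes moved with the same arrays. Between the IMQ groups 14 list genes were called, of which 0 passed with the Gapdh covariate, 0 with Ahr-/- IMQ array 3 alone, 12 without Ahr-/- IMQ array 1 and 8 without Ahr-/- IMQ array 2. The 8 list genes whose responses differed between genotypes gave 0 calls with the covariate, with array 3 alone and without Ahr-/- IMQ array 2. After IMQ in Ahr-/- skin 35 list genes were called, of which 22 passed with the covariate and 16 with array 3 alone. In Ahr+/- skin 26 were called, and 18 of them passed without untreated Ahr+/- array 2 and 9 without Ahr+/- IMQ array 2.

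**Figure D1:**
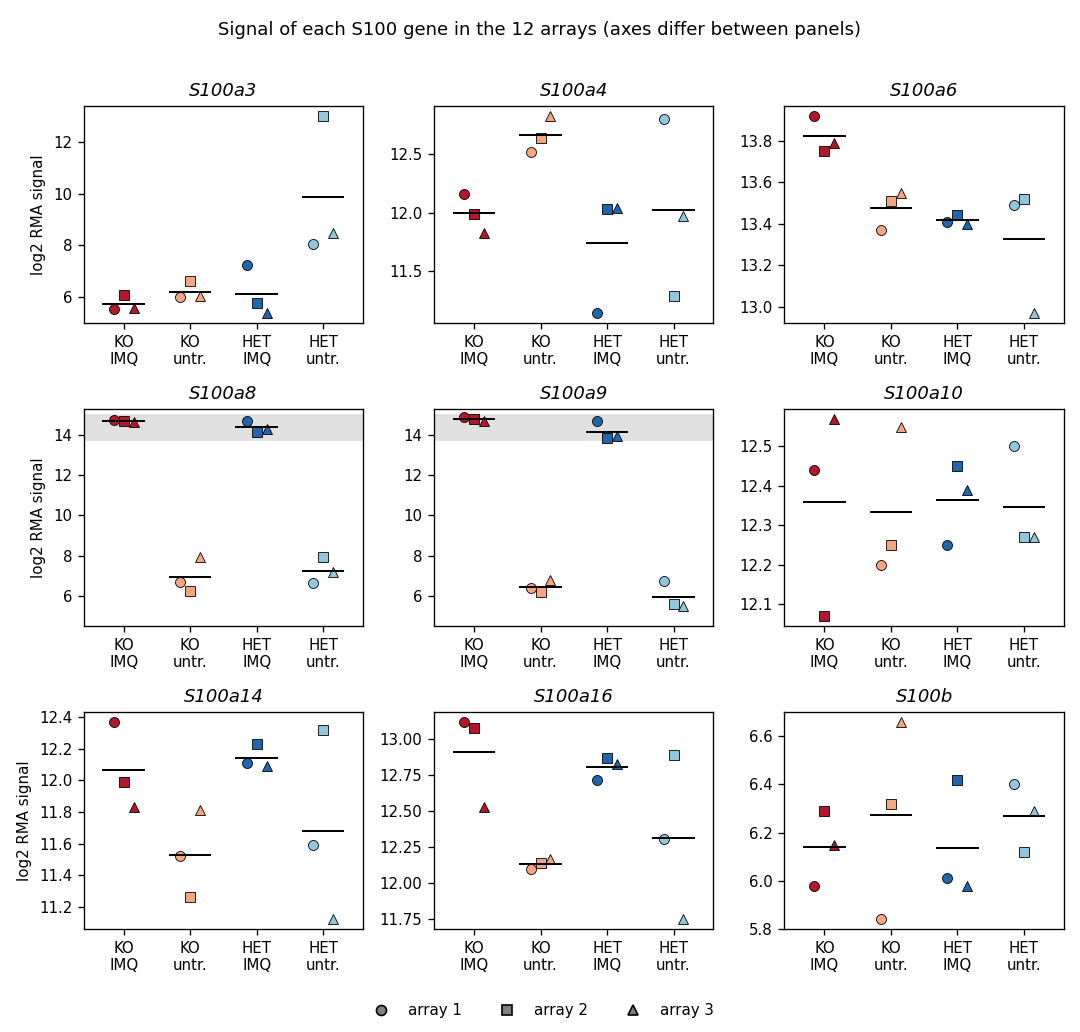
Log2 RMA signal of each S100 gene in the 12 arrays, by group (KO, Ahr-/-; HET, Ahr+/-; IMQ, day 2 of imiquimod; untr., untreated). Points are arrays 1 to 3, lines are group means, and axes differ between panels. The grey band, drawn only in the S100a8 and S100a9 panels, marks signals within 1 log2 unit of the arrays' highest probe sets. S100a8 and S100a9 lie in that band in all 6 IMQ arrays, and S100a3 reaches 13.02 in 1 untreated Ahr+/- array.

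S100a8 encodes the S100A8 subunit of calprotectin. Its log2 signals were 14.74, 14.71 and 14.64 in Ahr-/- IMQ skin, against 6.67, 6.27 and 7.93 in untreated Ahr-/- skin. Ahr+/- IMQ skin had 14.69, 14.15 and 14.30, against 6.63, 7.96 and 7.18 in untreated Ahr+/- skin. The lowest of the 6 IMQ arrays lay 6.18 log2 units above the highest of the 6 untreated arrays. After IMQ, Ahr-/- skin gained 7.74 log2 units of S100a8 signal (SE 0.39, adjusted p = 1.72e-07 by limma), or 214-fold. Ahr+/- skin gained 7.12 (SE 0.39, adjusted p = 6.28e-07 by limma), or 139-fold. All 6 IMQ arrays had S100a8 within 1 log2 unit of their brightest probe set. Signals are compressed there, so the rise may be larger than these estimates. The rank of S100a8 among the 45101 sets lay between 2 and 10 in Ahr-/- IMQ skin and between 7 and 65 in Ahr+/- IMQ skin.

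S100a9, which encodes the other subunit, followed the same course. Its log2 signals were 14.92, 14.78 and 14.69 in Ahr-/- IMQ skin, against 6.39, 6.18 and 6.78 in untreated Ahr-/- skin. They were 14.68, 13.84 and 13.97 in Ahr+/- IMQ skin, against 6.72, 5.58 and 5.50 in untreated Ahr+/- skin. A gap of 7.06 log2 units separated the 6 IMQ arrays from the 6 untreated ones. The gain after IMQ was 8.35 log2 units for Ahr-/- skin (SE 0.31, adjusted p = 1.14e-08 by limma), which is 326-fold, and 8.23 for Ahr+/- skin (SE 0.31, adjusted p = 1.36e-08 by limma). All 6 IMQ arrays had S100a9 within 1 log2 unit of their brightest probe set, so these estimates may also understate the rise. In 1 Ahr-/- IMQ array S100a9 was the brightest of all 45101 probe sets.

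The genotypes' calprotectin signals lay close together at the top of the range, where differences are compressed. The S100a9 signals of all 3 Ahr-/- IMQ arrays exceeded those of all 3 Ahr+/- IMQ arrays, the lowest being 14.69 and the highest 14.68. The Ahr-/- minus Ahr+/- difference after IMQ was 0.64 for S100a9 (95% interval -0.03 to 1.30, adjusted p = 0.258 by limma) and 0.32 for S100a8 (-0.52 to 1.15, adjusted p = 0.669). In untreated skin, where neither gene was near the top, it was 0.51 for S100a9 (-0.15 to 1.18, adjusted p = 0.793) and -0.30 for S100a8 (-1.14 to 0.53, adjusted p = 0.926). The responses to IMQ differed by 0.62 for S100a8 (-0.56 to 1.80, adjusted p = 0.599) and by 0.12 for S100a9 (-0.82 to 1.06, adjusted p = 0.915). None of these passed the test.

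Neutrophil markers were set beside calprotectin. The mean log2 signal of 11 of 13 listed neutrophil markers was 8.21, 8.30 and 8.41 in Ahr-/- IMQ skin and 5.67 to 5.90 in untreated Ahr-/- skin, against 7.40, 6.69 and 6.57 in Ahr+/- IMQ skin and 5.62 to 5.82 in untreated Ahr+/- skin. Of the 11, 7 were called higher after IMQ in Ahr-/- skin and 4 in Ahr+/- skin, with 0 lower in either. Their median log2 difference was 1.96 in Ahr-/- skin (0.07 over all genes) and 0.07 in Ahr+/- skin (-0.01 over all genes). In Ahr-/- skin Stfa2l1, a stefin of neutrophils, rose by 8.13 (adjusted p = 1.7e-07 by limma), Mmp8, a neutrophil collagenase, by 5.73 (adjusted p = 6.82e-05) and Csf3r, the G-CSF receptor, by 3.69 (adjusted p = 4.08e-06). In Ahr+/- skin Stfa2l1 rose by 6.98 (adjusted p = 1.06e-06) and Itgam, an integrin subunit of myeloid cells, by 2.61 (adjusted p = 0.00912). The rise of Itgam in Ahr-/- skin was 1.41 and was not called (adjusted p = 0.0692 by limma). Between the IMQ groups 5 were called higher in Ahr-/- skin and 0 lower, and the responses differed between genotypes for 3 of the 11. Itgam went the other way, with an Ahr-/- minus Ahr+/- value of -1.03 that was not called (adjusted p = 0.291). Mmp8 was 3.83 log2 units higher in Ahr-/- than in Ahr+/- IMQ skin (adjusted p = 0.00694 by limma), Mmp9, a gelatinase, was 3.62 higher (adjusted p = 0.000679), and Csf3r and Ngp, a granule protein gene, were each 2.30 higher (adjusted p = 0.00133 and 0.000714). With the Gapdh covariate these values were 3.80, 3.65, 2.13 and 1.90, and none was called (adjusted p = 0.214, 0.0594, 0.12 and 0.0935). The granule genes Mpo and Elane, made in neutrophil precursors, stayed dim in all arrays, at 4.21 to 5.04 and 4.74 to 5.62. Stfa2l1 was among the 3 genes most like S100a8 over the 12 arrays (Pearson 0.992). The part of neutrophil number in the calprotectin signal was not tested.

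The other genes closest to the calprotectin pair were Krt6b, Sprr2d, Sprr1b and Glrx. Krt6b, a keratin of wounded and hyperproliferative epidermis, had a Pearson correlation of 0.997 with S100a8 and 0.993 with S100a9 over the 12 arrays. Sprr2d, a cornified envelope gene, followed S100a8 at 0.994. Sprr1b, also of the cornified envelope, followed S100a9 at 0.996, and Glrx, a glutaredoxin, at 0.994. These correlations rest on the same split of IMQ and untreated arrays.

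**Figure D2:**
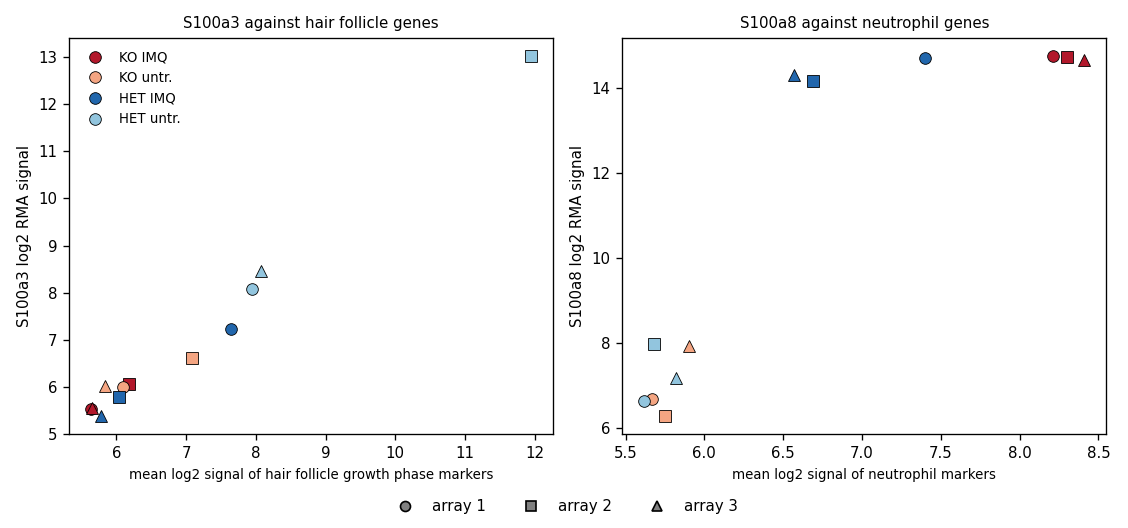
S100a3 log2 signal against the mean log2 signal of 16 hair follicle genes (left), and S100a8 log2 signal against that of 11 neutrophil genes (right), 1 point per array, coloured by group. S100a3 follows the hair follicle genes up to 1 untreated Ahr+/- array at 11.95 and 13.02, while S100a8 lies between 14.15 and 14.74 in all IMQ arrays over neutrophil means of 6.57 to 8.41.

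S100a16 and S100a14 encode epithelial S100 proteins, and both were higher on average after IMQ. S100a16 had log2 signals of 13.12, 13.08 and 12.53 in Ahr-/- IMQ skin, against 12.10, 12.14 and 12.17 in untreated Ahr-/- skin. All 3 IMQ arrays lay above all 3 untreated ones, array 3 by the least. The rise was 0.77 log2 units (SE 0.24, adjusted p = 0.032 by limma), which is 1.71-fold. Its second probe set, with a correlation of 0.966 to the first, gave 0.83 (adjusted p = 0.0119 by limma over 34945 probe sets), where 8.98% of the sets were called higher. The call was lost without Ahr-/- IMQ array 1 or 2 (adjusted p = 0.113 and 0.110), without any 1 of the untreated Ahr-/- arrays (0.0594 to 0.0884) and by the rank product, and the value fell to 0.55 with the Gapdh difference as a covariate (adjusted p = 0.302) and to 0.39 with Ahr-/- IMQ array 3 alone (adjusted p = 0.539).

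For Ahr+/- mice S100a16 had signals of 12.72, 12.87 and 12.83 after IMQ, against 12.31, 12.89 and 11.75 in untreated skin. Untreated array 2 overlapped the IMQ arrays. The difference was 0.49 (95% interval -0.03 to 1.02, adjusted p = 0.233 by limma), and without untreated Ahr+/- array 2 it was 0.78 and was called (adjusted p = 0.0226). Between the genotypes the difference was 0.10 after IMQ (-0.43 to 0.63, adjusted p = 0.838) and -0.18 in untreated skin (-0.71 to 0.35, adjusted p = 0.93). The responses to IMQ differed by 0.28 and did not pass the test (-0.47 to 1.02, adjusted p = 0.717). Genes most like S100a16 over the 12 arrays were Ube2s, of the anaphase-promoting pathway (0.974), Gpx2, a glutathione peroxidase (0.973), and Mcm2, a replication helicase subunit (0.971).

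S100a14 had signals of 12.37, 11.99 and 11.83 in Ahr-/- IMQ skin, against 11.52, 11.26 and 11.81 in untreated Ahr-/- skin. The groups did not overlap, array 3 of each lying close together, and the difference of 0.53 was not called (95% interval -0.03 to 1.10, adjusted p = 0.151 by limma). With array weights it was 0.83 and was called (adjusted p = 0.0024), the highest value of the settings tried, and the lowest was 0.30. Array 3 of Ahr-/- IMQ skin, which did not stand apart in Gapdh, had the lowest S100a14 signal of its group, against a mean of 11.53 in untreated Ahr-/- skin. Ahr+/- skin had 12.11, 12.23 and 12.09 after IMQ, against 11.59, 12.32 and 11.12 in untreated skin. The difference was 0.47 (-0.10 to 1.03, adjusted p = 0.299), and without untreated Ahr+/- array 2, the highest of that group, it was 0.79 and called (adjusted p = 0.0241). The genotypes differed by -0.08 after IMQ (-0.65 to 0.48) and by -0.15 in untreated skin (-0.71 to 0.41). Abitram, Ssna1 and Eri1 had the most similar patterns (0.966, 0.962 and 0.952).

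**Figure D3:**
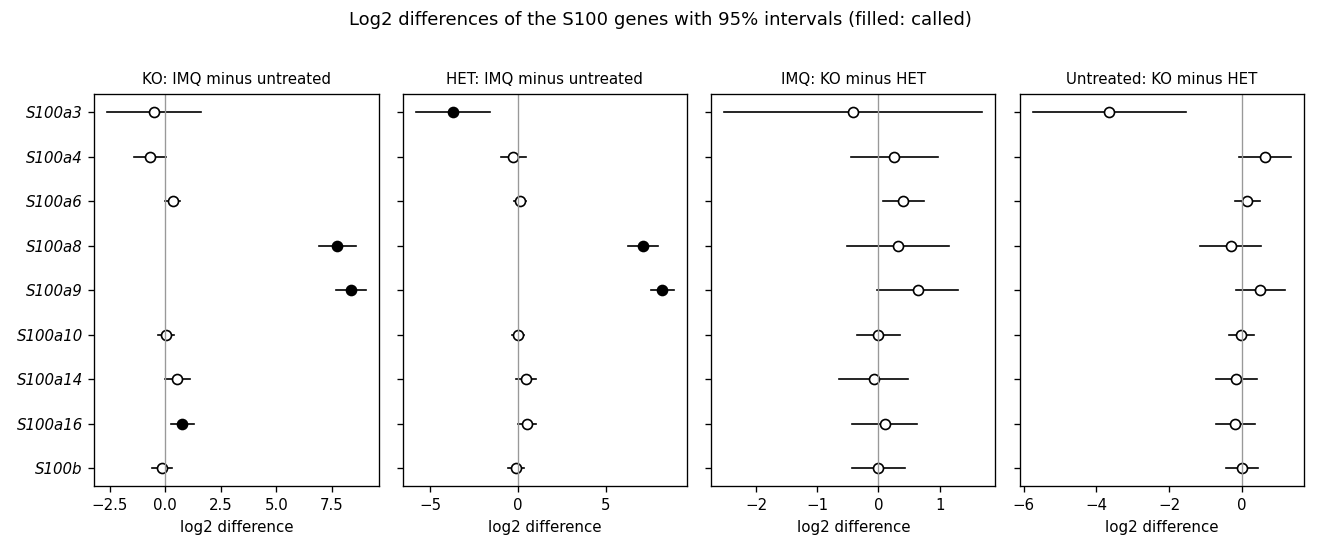
Log2 difference of each S100 gene (point) with its 95% interval from limma (line) in 4 comparisons, with filled points for called genes. Only S100a8, S100a9, S100a16 and S100a3 have filled points, all in the IMQ comparisons. The values of S100a8 and S100a9 after IMQ may be understated, because their signals lay at the top of the range.

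S100a6, calcyclin, is a widely expressed member that binds the calcyclin-binding protein. It had signals of 13.92, 13.75 and 13.79 in Ahr-/- IMQ skin, against 13.37, 13.51 and 13.55 in untreated Ahr-/- skin. Ahr+/- skin had 13.41, 13.44 and 13.40 after IMQ, against 13.49, 13.52 and 12.97 without treatment. The 3 Ahr-/- IMQ arrays were thus the highest of the 12. The difference was 0.34 after IMQ in Ahr-/- skin (95% interval 0.01 to 0.68, adjusted p = 0.119 by limma) and 0.09 in Ahr+/- skin (-0.24 to 0.43, adjusted p = 0.783). Between Ahr-/- and Ahr+/- IMQ skin it was 0.40 (0.07 to 0.74, unadjusted p = 0.0217 and adjusted p = 0.16 by limma), the only S100 gene of that comparison with an unadjusted p under 0.05. None of the S100a6 arrays lay within 1 log2 unit of the brightest set, but those of Ahr-/- IMQ skin lay just outside that limit. The brightest sets of these 3 arrays had 14.92, 14.80 and 14.87, and S100a6 ranked between 112 and 150 of the 45101 sets there. Its differences may therefore be compressed as well. Gadd45a, a stress-induced growth arrest gene, was its closest gene (0.919), followed by Rab23 (0.91) and Snx4 (0.908).

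S100a10, p11, is the partner of annexin A2 and lacks calcium binding. It had signals of 12.44, 12.07 and 12.57 in Ahr-/- IMQ skin and 12.20, 12.25 and 12.55 in untreated Ahr-/- skin, against 12.25, 12.45 and 12.39 in Ahr+/- IMQ skin and 12.50, 12.27 and 12.27 in untreated Ahr+/- skin. All groups overlapped, and the 12 arrays spanned 0.50 log2 units, the narrowest range of the 9 genes. The difference after IMQ was 0.03 in Ahr-/- skin (95% interval -0.32 to 0.38) and 0.02 in Ahr+/- skin (-0.33 to 0.36). Its second probe set had signals of 12.12 to 12.43 in the 12 arrays and also overlapped between treated and untreated arrays. The dimmest set had 7.12 to 7.49 in Ahr-/- IMQ skin and 6.50 to 8.87 in untreated Ahr-/- skin, against 7.24 to 7.75 in Ahr+/- IMQ skin and 7.76 to 8.40 in untreated Ahr+/- skin, and its correlation with the first was -0.43. Its differences of -0.69 and -0.67 after IMQ were not called (adjusted p = 0.336 and 0.432 by limma). The closest genes to the first set were Selenok, Saysd1 and Henmt1 (0.859, 0.839 and 0.837).

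S100a3 encodes a cysteine-rich protein of the hair cuticle, which in humans is a substrate of the deiminase PADI3. Its signals were 5.54, 6.07 and 5.56 in Ahr-/- IMQ skin, against 6.0, 6.61 and 6.03 in untreated Ahr-/- skin. They were 7.23, 5.79 and 5.38 in Ahr+/- IMQ skin, against 8.07, 13.02 and 8.47 in untreated Ahr+/- skin. The untreated Ahr+/- arrays were the highest of the 12, and array 2 stood far above the next.

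After IMQ, S100a3 in Ahr+/- skin fell by 3.72 log2 units (SE 0.97, adjusted p = 0.0306 by limma), and by 2.14 without untreated array 2 (adjusted p = 0.00492). The call was lost without Ahr+/- IMQ array 2 or 3 (-3.55 and -3.34, adjusted p = 0.0998 and 0.101), in the fit to these groups alone (adjusted p = 0.139) and with the Gapdh covariate (-3.74, adjusted p = 0.0526), with variance trend and robust priors (adjusted p = 0.0741) and with Ahr-/- IMQ array 3 alone in the shared fit (adjusted p = 0.0655). For Ahr-/- skin the difference was -0.49 (95% interval -2.60 to 1.62, adjusted p = 0.747). This interval rests on the spread shared by all groups. The SD was 0.30 and 0.34 in the Ahr-/- IMQ and untreated groups and 2.75 in untreated Ahr+/- skin. Without untreated Ahr+/- array 2 the Ahr-/- value of -0.49 had an adjusted p of 0.353 by limma. The difference between the responses of the genotypes was 3.23 (0.25 to 6.21) and did not pass the test (unadjusted p = 0.0361, adjusted p = 0.246). In untreated skin the Ahr-/- arrays lay below all Ahr+/- arrays, by 3.64 on average (interval of the difference -5.75 to -1.53, unadjusted p = 0.00264, adjusted p = 0.717), and without untreated Ahr+/- array 1 the value was -4.53 and was called (adjusted p = 0.0496), while without array 2 it was -2.06 (adjusted p = 0.54). After IMQ the genotypes differed by -0.41 (-2.52 to 1.70).

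Genes of the growing hair follicle had the pattern of S100a3. Its closest genes over the 12 arrays were the hair and inner root sheath keratins Krt35, Krt71 and Krt31 (Pearson 0.994, 0.988 and 0.987). The mean log2 signal of 16 of 18 listed growth phase genes was 5.64, 6.18 and 5.65 in Ahr-/- IMQ skin and 6.10, 7.08 and 5.84 in untreated Ahr-/- skin, against 7.64, 6.03 and 5.78 in Ahr+/- IMQ skin and 7.94, 11.95 and 8.07 in untreated Ahr+/- skin. The correlation of S100a3 with this mean was 0.992 over 12 arrays and 0.969 over the 11 without untreated Ahr+/- array 2. Of the 16 genes, 6 were called lower after IMQ in Ahr+/- skin and 0 in Ahr-/- skin, with 0 called between genotypes, led by Krt27 (-4.25, adjusted p = 0.0313 by limma), Krt34 (-3.79, adjusted p = 0.0484), Krt33a (-3.69, adjusted p = 0.0497) and Krt35 (-3.64, adjusted p = 0.0413). Without untreated Ahr+/- array 2 the first 3 of these were not called (-3.03, -2.36 and -2.15, adjusted p = 0.0572, 0.0835 and 0.0653), while Krt35 was (-1.99, adjusted p = 0.0116). All 4 groups shared 1 estimate of the spread, which untreated Ahr+/- array 2 widened for these genes. The 0 calls in Ahr-/- skin and between genotypes therefore do not show that the genes stayed level. The mean of 6 melanocyte markers also stood highest in that array, at 7.79, 11.15 and 8.19 in untreated Ahr+/- skin, where Ahr+/- IMQ skin had 6.83 to 6.89. The part of hair follicle or melanocyte content in the S100a3 signal was not tested.

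S100a4, known as metastasin, binds non-muscle myosin and is made by fibroblasts, macrophages and other migrating cells. It had signals of 12.16, 11.99 and 11.83 in Ahr-/- IMQ skin, against 12.52, 12.64 and 12.83 in untreated Ahr-/- skin. Those of Ahr+/- skin were 11.14, 12.03 and 12.04 after IMQ, against 12.80, 11.29 and 11.97 without treatment. The Ahr-/- groups did not overlap, while the Ahr+/- groups did. The difference after IMQ was -0.67 in Ahr-/- skin (95% interval -1.38 to 0.04, adjusted p = 0.153 by limma), which was called only in the fit to these groups alone (adjusted p = 0.0117). It was -0.29 in Ahr+/- skin (-1.0 to 0.43, adjusted p = 0.659). Between the genotypes it was 0.26 after IMQ (-0.45 to 0.97) and 0.64 in untreated skin (-0.07 to 1.35, adjusted p = 0.764). Of 8 fibroblast markers, 4 were called lower and 1 higher after IMQ in Ahr-/- skin, led by Lum, the collagen-binding lumican (-1.60, adjusted p = 0.00101), and their part in the S100a4 value was not tested. Myl4, Cacnb1 and Suox were the genes most like S100a4 (0.945, 0.943 and 0.941).

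S100b is a glial member that Schwann cells of skin nerves express. By its brighter probe set it had signals of 5.98, 6.29 and 6.15 in Ahr-/- IMQ skin and 5.84, 6.32 and 6.66 in untreated Ahr-/- skin, against 6.01, 6.42 and 5.98 in Ahr+/- IMQ skin and 6.40, 6.12 and 6.29 in untreated Ahr+/- skin. All groups overlapped, with differences after IMQ of -0.14 in Ahr-/- skin (95% interval -0.58 to 0.30) and -0.13 in Ahr+/- skin (-0.57 to 0.31).

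The second S100b probe set gave another result. Its signals were 4.62, 4.86 and 4.35 in Ahr-/- IMQ skin, against 6.10, 6.26 and 6.53 in untreated Ahr-/- skin. Those of Ahr+/- skin were 4.98, 5.69 and 5.34 after IMQ, against 6.33, 5.63 and 6.16 without treatment. By this set S100b in Ahr-/- skin fell by 1.69 after IMQ (SE 0.23, adjusted p = 0.000295 by limma over 34945 probe sets), where 11.1% of the sets were called lower. In Ahr-/- IMQ skin the set ranked between 33375 and 36597 of the 45101, at the dim end, and in untreated Ahr-/- skin between 20257 and 24062. For Ahr+/- skin the value was -0.71 (95% interval -1.20 to -0.21, adjusted p = 0.0666), and Ahr-/- minus Ahr+/- IMQ skin gave -0.72 (-1.22 to -0.23, adjusted p = 0.0949). The difference of the responses was -0.98 (-1.68 to -0.29, adjusted p = 0.152). The sets correlated at 0.498 over the 12 arrays, and from the mean of both S100b was called lower in Ahr-/- skin (-0.91, adjusted p = 0.0057). Which set follows the S100b transcript was not tested, and array 3 of Ahr-/- IMQ skin, which did not stand apart in Gapdh, had the lowest signal of the second set.

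Schwann cell markers were set beside it. The mean of 6 of 8 listed markers was 8.17, 8.36 and 8.22 in Ahr-/- IMQ skin and 9.21, 9.36 and 9.34 in untreated Ahr-/- skin, against 8.34, 8.53 and 8.46 in Ahr+/- IMQ skin and 9.47, 8.28 and 9.20 in untreated Ahr+/- skin. Of the 6, 3 were called lower after IMQ in Ahr-/- skin and 2 in Ahr+/- skin. Cdh19, a cadherin of Schwann cells, fell by 1.88 in Ahr-/- skin (adjusted p = 0.000872 by limma), and Mbp, myelin basic protein, by 1.86 (adjusted p = 0.00697). With the Gapdh covariate Cdh19 gave -1.68 and was called (adjusted p = 0.0241), while Mbp gave -1.99 and was not (adjusted p = 0.0511). In Ahr+/- skin Cdh19 and Mbp gave 0.11 and -0.76 (adjusted p = 0.881 and 0.31). Cdh19 was called lower in Ahr-/- than in Ahr+/- IMQ skin (-1.66, adjusted p = 0.0113), but not with the Gapdh covariate (-1.41, adjusted p = 0.376). The responses differed between genotypes by the test for 1 of the 6 markers. Ngfr, the p75 neurotrophin receptor, fell by 1.31 in Ahr+/- skin (adjusted p = 0.0315). Sox10 lay between 7.14 and 7.61 in all arrays. The closest genes to the brighter S100b set were Mrps21, Nanog and Chchd1 (0.872, 0.833 and 0.832).

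**Figure D4:**
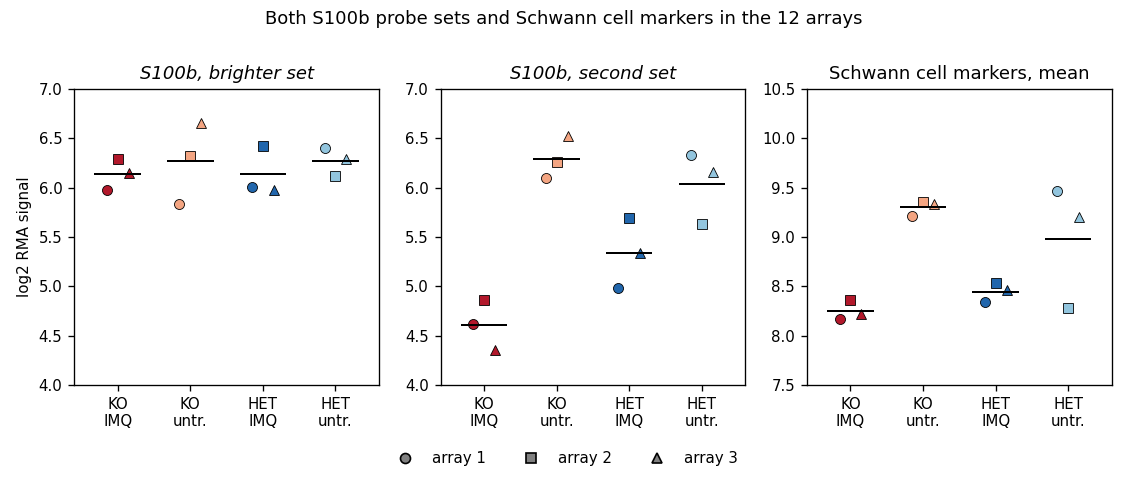
Log2 RMA signal of the brighter (left) and the second (middle) S100b probe set and mean log2 signal of 6 Schwann cell markers (right) in the 12 arrays, by group, with points for arrays and lines for group means. The second set lies at 4.35 to 4.86 in Ahr-/- IMQ skin and 6.10 to 6.53 in untreated Ahr-/- skin, while the brighter set overlaps between all groups.

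Other S100 genes of the mouse were taken as a further list. Of 6 listed, S100a1, S100a5, S100a13 and S100g had a probe set of their own. S100g, the calbindin of the intestine, had signals of 4.15, 4.52 and 4.44 in Ahr+/- IMQ skin, against 3.81, 3.43 and 3.70 in untreated Ahr+/- skin. It was the only one called, higher by 0.73 in Ahr+/- IMQ skin (adjusted p = 0.0259 by limma), and it ranked between 34513 and 41732 of the 45101 sets in these arrays, at the dim end. Without untreated Ahr+/- array 2 S100g gave 0.62 and was not called (adjusted p = 0.0537). Its difference was -0.07 in Ahr-/- skin (95% interval -0.46 to 0.33), and the responses did not differ by the test (-0.79, adjusted p = 0.143). S100a1 lay between 8.99 and 9.77, S100a13 between 9.39 and 10.13 and S100a5 between 4.31 and 5.01 over the 12 arrays. S100a13, which takes part in the release of fibroblast growth factor, was 0.42 higher in Ahr-/- than in Ahr+/- IMQ skin and was not called (adjusted p = 0.174 by limma).

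The fused-type genes join an S100 domain to long repeats and encode proteins of the cornified cell and the inner root sheath. Of 7 listed, 5 were measured. Of these 1, Flg, was called lower after IMQ in Ahr-/- skin and 0 higher. Flg encodes filaggrin, which bundles keratin in the upper epidermis. Its signals lay at 6.83 to 9.46 in Ahr-/- IMQ skin and 8.99 to 10.83 in untreated Ahr-/- skin, against 9.32 to 11.83 in Ahr+/- IMQ skin and 10.15 to 11.41 in untreated Ahr+/- skin. It fell by 2.34 after IMQ in Ahr-/- skin (adjusted p = 0.0382 by limma) and was 3.01 lower in Ahr-/- than in Ahr+/- IMQ skin (adjusted p = 0.0475), although the difference of the responses did not pass (-2.54, adjusted p = 0.247). With the Gapdh covariate the Flg values were -1.17 and -1.57 and neither was called (adjusted p = 0.471 and 0.878). Within Ahr+/- skin Rptn, repetin of the cornified envelope, was called higher after IMQ (2.69, adjusted p = 0.0134), and Tchh, trichohyalin of the inner root sheath, was called lower (-3.41, adjusted p = 0.0465, and -2.40 with adjusted p = 0.0971 without untreated Ahr+/- array 2). The mean signal of the 5 genes was 7.33, 7.38 and 8.38 in Ahr-/- IMQ skin, against 9.27, 9.54 and 9.65 in Ahr+/- IMQ skin. The lowest values were in the arrays with the high Gapdh difference, and the part of RNA quality was not tested.

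Receptors of extracellular S100 proteins were measured for all 5 listed genes. After IMQ in Ahr-/- skin 2 were called higher and 1 lower, and in Ahr+/- skin 0 were called. Ager, which encodes RAGE, lay at 7.0 to 7.38 in Ahr-/- IMQ skin and at 6.32 to 6.58 in untreated Ahr-/- skin, against 6.34 to 6.46 in Ahr+/- IMQ skin and 6.31 to 6.60 in untreated Ahr+/- skin. The rise after IMQ in Ahr-/- skin was 0.76 (adjusted p = 0.00195 by limma), and Ahr-/- exceeded Ahr+/- IMQ skin by 0.79 (adjusted p = 0.00909). Mcam, an adhesion molecule that binds calprotectin in human cells, rose by 0.77 after IMQ in Ahr-/- skin (adjusted p = 0.00811 by limma) and was 0.93 higher than in Ahr+/- IMQ skin (adjusted p = 0.0158). The responses of Ager and Mcam did not differ between genotypes by the test (0.80 and 1.00, adjusted p = 0.0756 and 0.0805). With the Gapdh covariate the differences between the IMQ groups were 0.58 for Ager and 0.70 for Mcam (adjusted p = 0.371 and 0.469), and the rise of Mcam was 0.59 (adjusted p = 0.131). Nptn, neuroplastin, a receptor of S100A8 in human keratinocytes, fell by 0.80 in Ahr-/- skin (adjusted p = 0.00274). With the Gapdh covariate Nptn gave -0.58 and was not called (adjusted p = 0.0638 by limma). Tlr4 and Bsg were not called in any comparison.

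Of 5 measured binding partners, 1 was called lower after IMQ in Ahr-/- skin and none in the other comparisons. This was Ahnak, a giant scaffold protein held by the S100A10 and annexin A2 complex (-0.85, adjusted p = 0.00201 by limma), which gave -0.55 in Ahr+/- skin (adjusted p = 0.0478), short of the fold minimum. Anxa2, the partner of S100a10, gave 0.21 in Ahr-/- skin and 0.19 in Ahr+/- skin after IMQ (adjusted p = 0.288 and 0.436). Cacybp, the partner of S100a6, gave 0.29 and 0.49 (adjusted p = 0.359 and 0.187).

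Markers of the other cell types in skin moved after IMQ as well. Of 7 macrophage and monocyte markers, cells that also carry calprotectin, 1 was called higher and 1 lower in Ahr-/- skin and 1 higher in Ahr+/- skin. Cd14, a co-receptor for bacterial lipid, rose by 3.81 log2 units in the Ahr-/- mice (adjusted p = 1.95e-05 by limma) and was 3.45 higher than in Ahr+/- IMQ skin (adjusted p = 0.000428), and the responses differed by 3.06 (adjusted p = 0.0174). Adgre1, a macrophage surface receptor, rose by 2.24 in the Ahr+/- mice (adjusted p = 0.000703), was lower in Ahr-/- than in Ahr+/- IMQ skin (-1.60, adjusted p = 0.0119), and its responses differed by -2.39 (adjusted p = 0.0223). With the Gapdh covariate the differences between the IMQ groups were 3.20 for Cd14 and -1.19 for Adgre1 (adjusted p = 0.0594 and 0.449). Among 7 keratinocyte markers 1 was called higher and 3 lower in Ahr-/- skin, and 2 higher and 1 lower in Ahr+/- skin. Krt14, a keratin of basal cells, rose in both (1.58 and 1.49, adjusted p = 5.68e-06 and 2.17e-05). Its signals of 14.64 to 14.84 in the IMQ arrays lay at the top of the range, so these rises may be understated. Krt10, a keratin of differentiating cells, fell by 3.47 in the Ahr-/- mice (adjusted p = 0.000172) and Krt15, a keratin of basal cells and the hair bulge, gave -3.35 (adjusted p = 0.000225). Called lower after IMQ were 3 of 4 T cell markers in Ahr-/- skin and 1 in Ahr+/- skin, 3 and 0 of 4 Langerhans cell markers, 2 and 3 of 6 melanocyte markers, 1 and 1 of 6 adipocyte markers, and, in Ahr+/- skin, 2 of 8 fibroblast markers. None of these was called higher. The largest of these falls in Ahr-/- skin was that of Cd74, an antigen presentation chaperone (-3.21, adjusted p = 0.00128). In Ahr+/- skin Mlana, of pigment cells, gave -2.83 (adjusted p = 0.0438), and -1.44 without untreated Ahr+/- array 2 (adjusted p = 0.000203). The Mlana call was lost with the Gapdh covariate (-2.94, adjusted p = 0.0604) and without Ahr-/- IMQ array 1 or 2 (adjusted p = 0.0613 and 0.0611 by limma). The part of these cell types in the S100 signals was not tested.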

How the data were processed

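Total RNA of whole mouse skin was measured on 12 Affymetrix arrays, 3 biological replicates in each of 4 groups taken from the labels. Values deposited by the authors are log2 signals of probe sets from RMA (affy in R, its version not stated in the labels or methods). This procedure corrects background, quantile-normalizes the arrays together and summarizes the probes of a set, so signals near the top of the range are compressed and levels of different probe sets are not comparable. Raw intensities were not used.

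Of 45101 sets, 64 controls, 932 sets of several genes and 9160 without a symbol were not tested. This left 34945 sets for 18193 genes, each by the set with the highest mean. The 4 group means were fitted with limma 3.58.1 in R 4.3.3 (8 residual and 4.44 prior degrees of freedom), with two-sided tests, Benjamini-Hochberg adjustment over all genes and 95% intervals. P-values measure the spread between these replicates. Calls needed an adjusted p below 0.05 and at least a 1.5-fold change. The study's criteria (rank product, pfp under 0.01) were an alternative, rewritten in Python 3.11.15 with 100 permutations. Scripts were tested on simulated data. In all 26 other settings were tried.

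The S100 genes, 14 marker and pathway lists and tests were chosen with earlier results of these data known. Named were all S100 genes and probe sets, the 3 genes most like each S100 gene by Pearson correlation, and genes from the lists. The rule allowed up to 4 called genes of each list and comparison with the largest differences (up to 2 genes where none was called), and the text gives only some of these. Sequences and positions are from RefSeq tables of GRCm38.p6.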

Additional observations from a re-analysis of the deposited data

How the results depend on the processing

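Over 26 other settings, S100a8 and S100a9 were called higher after IMQ in both genotypes in each setting, with log2 differences of 7.39 to 8.27 and 8.22 to 8.59 in Ahr-/- skin and 6.81 to 7.47 and 7.97 to 8.62 in Ahr+/- skin. In Ahr-/- skin 2 to 4 S100 genes were called after IMQ. In Ahr+/- skin array weights called 5, adding S100a14 and S100a16, and leaving out each array in turn gave 2 to 5, the 5 without untreated Ahr+/- array 2. Between the IMQ groups array weights called 1 gene, S100a9 (0.81, adjusted p = 0.033 by limma), and leaving out each array gave 0. In untreated skin the rank product called 1, S100a3, and leaving out each array gave 0 to 1. The difference of the responses had 0 calls in every setting that could be fitted. Of 1172 single values, 1145 stayed on their side of the threshold, 11 passed it and 16 lost it, and 86 uncalled values changed sign. Deviations of arrays with the same replicate number had mixed correlations (-0.18 to 0.32, 5 of 12 over 0.1), and the labels do not say whether such arrays share a batch. With the replicate block the S100 counts stayed at 3, 3, 0, 0 and 0 in the order Ahr-/- IMQ, Ahr+/- IMQ, between IMQ groups, between untreated groups and the difference of responses. The calls over all genes were 4145 with the replicate block and 4130 without it for Ahr-/- IMQ skin, 684 and 724 between the IMQ groups, and 3 and 1 between the untreated groups. Other settings moved these counts by more: for Ahr-/- IMQ skin 2226 with the Gapdh covariate, 1444 with Ahr-/- IMQ array 3 alone, 2725 at an adjusted p under 0.01 and 355 by the rank product. For Ahr+/- IMQ skin 1646 became 2563 with array weights, 717 at an adjusted p under 0.01, 959 in the fit to these groups alone, 231 by the rank product and 901 to 2436 leaving out each array. Between the IMQ groups 724 became 27 with the covariate, 43 with array 3 alone, 2019 with array weights, 215 at an adjusted p under 0.01, 1091 in the groups alone, 214 by the rank product and 196 to 1286 leaving out each array, lowest without Ahr+/- IMQ array 2. Between the untreated groups 1 became 206 without untreated Ahr+/- array 1, 59 by the rank product and 0 to 7 otherwise. For the difference of responses 241 became 12 with the covariate, 18 with array 3 alone, 2096 with array weights, 27 at an adjusted p under 0.01 and 31 to 942 leaving out each array. The number of arrays and the top of the signal range limit what can be seen for S100a8 and S100a9. Ahr-/- IMQ array 3 alone and the counts of list genes without single arrays were chosen after seeing the data, and array 3 alone assumes that this array varies like the other groups.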
